A study of Rattus norvegicus with 6 samples.

Results

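The BCL2 family decides whether a cell's mitochondria release the factors that start apoptosis. Here 10 of its genes were followed in rat fibroblast-like synoviocytes, chosen by name: the pro-survival Bcl2, Bcl2l1 and Mcl1, the effectors Bax and Bak1, and the BH3-only genes Bad, Bid, Bcl2l11, Bbc3 and Pmaip1. The count table held a row for 8 of these 10 among its 34156 genes, and Mcl1 and Bbc3 were not analysed here. All 8 passed the filter on low counts (10 or more counts in 3 or more libraries), as did 13614 genes in all. The cells, bought from a cell bank as rat rheumatoid arthritis synoviocytes (RA-FLS) and labelled wild type, were given TNF-α alone at 10 ng/mL (TNF-α group, 3 libraries) or TNF-α at 10 ng/mL together with emodin, an anthraquinone of rhubarb, at 80 μmol/L (TNF-α+EMO group, 3 libraries). Both groups therefore carry TNF-α, and an untreated group was not analysed here. The labels give day 5, whereas the study's methods give an incubation of hours. The methods call the libraries biological replicates, but nothing says that they came from separate cultures, so p-values measure the spread between these libraries.

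In healthy cells the pro-survival proteins hold BAX and BAK1 inactive. The BH3-only proteins sense different kinds of damage and either occupy the pro-survival proteins or engage BAX and BAK1 directly, after which cytochrome c leaves the mitochondria and caspases are switched on. In rheumatoid synovium, fibroblast-like synoviocytes are known for resisting apoptosis, and the balance within this family is a usual reading of that resistance.

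Each library held 16813322 to 17794455 counts on genes. The TNF-α+EMO libraries differed more from each other than the TNF-α libraries did, with replicate 3 the farthest out: a typical gene (median) differed by 0.104 to 0.109 on the log2 scale within the TNF-α group and by up to 0.233 within the TNF-α+EMO group, between replicates 1 and 3. Values without each library are therefore given where they differ. Of 14 fibroblast marker genes with a row, Vim, Col1a1 and Pdgfra were abundant with TNF-α. Pdpn, Thy1 and Prg4, which mark synovial fibroblasts, had at most 7 counts in any library. Cdh11, from the same list, had 2893 to 3114 counts with TNF-α and 32 to 43 with EMO. Cd55, also listed, had 129 to 177 and then 649 to 827. Summed over the 14 fibroblast markers, normalized counts ran from 205559 to 225851 with TNF-α and from 36304 to 38840 with EMO. Of the 11 tested markers, at an adjusted p under 0.05 (edgeR), 9 were lower and 2, Cd55 and Dcn, were higher. Among all tested genes 41.4% were lower and 39.4% higher. Dcn had at most 33 counts in any library and passed the filter on low counts only through the TNF-α+EMO group. Fap and Lum passed it only through the TNF-α group, so the filter set the direction of these genes. Macrophage markers summed to 1202 to 1307 and then 747 to 818. Of the 3 tested markers 2 were higher (Cd68 and Itgam) and 1 lower (Cd14, the most abundant), beside the same shares of all tested genes. Itgam had only 1, 0 and 0 counts and then 12, 10 and 14, so it passed the filter only through the TNF-α+EMO group. It overlaps Itgax, with up to 1763 counts, on the same strand. Csf1r, Adgre1, Mrc1 and Ptprc had at most 6 counts in any library, and Cd163 was at 0 throughout. Lymphocyte markers summed to at most 6.87 normalized counts, with Cd3d and Ms4a1 at 0. Endothelial markers went from between 69.2 and 76.5 to between 13.2 and 21.7 (Kdr at 0). Epithelial markers, nearly all of them Krt8, went from between 9950 and 10806 to between 1968 and 2304 (Epcam at 0). The chondrocyte sum went from between 462 and 545 to between 6.14 and 8.25 (Acan at 0). Sox9 made up nearly all of this sum under TNF-α, falling from 548, 490 and 459 to 6, 1 and 5 counts. Comp fell from 8, 8 and 15 to 0. Col2a1 went the opposite way, being absent under TNF-α and reaching 2, 5 and 3 under EMO. Genes of the mitochondrial genome held 3.35% to 3.58% of counts with TNF-α and 0.363% to 0.399% with EMO. The part of these shifts in the results for the BCL2 family was not tested, and in bulk RNA fewer cells of a kind cannot be told apart from less RNA per cell.

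EMO was accompanied by changes in both directions within the family. With a call defined as an adjusted p under 0.05 by edgeR's quasi-likelihood test, Pmaip1, Bcl2l1, Bax, Bak1 and Bad were higher in the TNF-α+EMO group and Bcl2l11, Bcl2 and Bid were lower, that is 5 higher and 3 lower of 8. In the background 80.9% of all tested genes were called, with 39.4% of the tested genes higher and 41.4% lower. Counting only genes whose absolute log2 fold change was also over 1 (DEGs), 3 members were higher and 2 lower, where the background was 19.5% and 27.8%. In all 8 the groups did not overlap in normalized counts, as was the case for 82.9% of the tested genes. The median log2 fold change of the 8 was 0.67 and that of all tested genes was -0.01, and the median absolute log2 fold change was 1.55 against 0.96. The 8 members were thus called in a setting where most genes were called, and the values below show which of them moved each way.

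**Figure D1:**
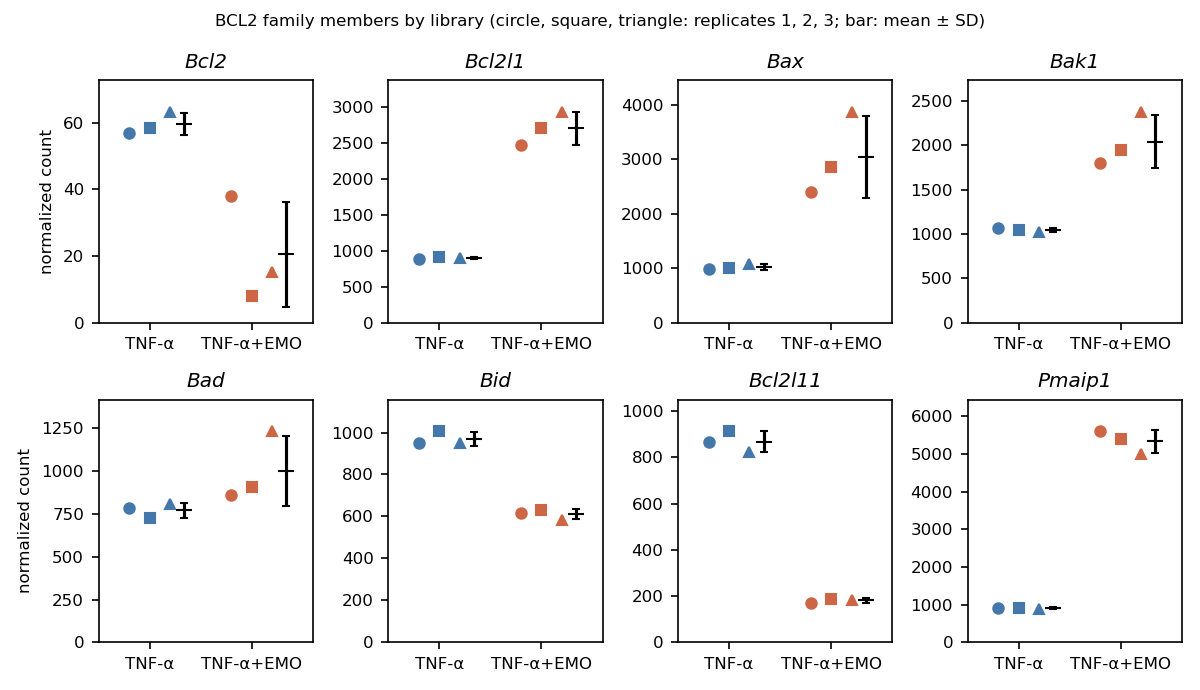
Normalized counts (counts scaled to a common library size, linear axes from 0) of the 8 BCL2 family members in each library, with circles, squares and triangles for replicates 1, 2 and 3 and black bars for the mean ± SD of 3 libraries. The groups do not overlap in any panel. The TNF-α+EMO points of Bcl2, Bcl2l1, Bax, Bak1, Bad and Pmaip1 have a larger SD than the TNF-α points. Those of Bid and Bcl2l11 have a smaller SD.

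The pro-survival genes moved in opposite directions. Bcl2l1, which encodes BCL-XL, the guardian of mitochondrial integrity in many adherent cells (ENSRNOG00000007946), lies on chromosome 3 from 148259596 to 148313810 on the minus strand (Rnor_6.0). Its counts were 902, 936 and 922 with TNF-α and 2388, 2640 and 2877 with EMO. Every TNF-α+EMO library was above every TNF-α library. Normalized counts were 899 ± 14 and 2698 ± 234 (SD, n = 3 each), a 3.00-fold rise with a log2 fold change of 1.59 (standard error, SE, 0.07; adjusted p = 5.6e-09). A pseudogene of the opposite strand, LOC108353446, lies inside the Bcl2l1 span with 3072, 5203 and 3974 counts under TNF-α and 6564, 4667 and 9112 under TNF-α+EMO (log2 fold change 0.80, adjusted p = 0.081). The strand setting of the counting is not given in the sources used here, so the Bcl2l1 counts are less certain than those of the other members, none of which overlapped another listed gene.

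Bcl2 itself, the founding member of the family (ENSRNOG00000002791, chromosome 13, 26605426 to 26769374, minus strand), was barely expressed. It had 58, 60 and 65 counts with TNF-α and 37, 8 and 15 with EMO. The groups did not overlap, but TNF-α+EMO replicate 1 stood above replicates 2 and 3. The normalized count fell from 59.6 ± 3.34 to 20.5 ± 15.7, with a log2 fold change of -1.53 (SE 0.44, adjusted p = 0.0083). Without TNF-α+EMO replicate 1 the log2 fold change was -2.31, and without replicate 2 it was -1.13, with the call kept in each case.

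Both effectors rose. BAX and BAK1 are the proteins that form pores in the outer mitochondrial membrane, and a cell lacking both is largely resistant to mitochondrial apoptosis. Bax (ENSRNOG00000020876, chromosome 1, 101451802 to 101457207, minus strand) had 1010, 1036 and 1113 counts with TNF-α and 2329, 2797 and 3806 with EMO. All TNF-α+EMO libraries were above all TNF-α libraries, and TNF-α+EMO replicate 3 was the highest. The normalized count rose 2.96-fold, from 1028 ± 49.4 to 3047 ± 755, with a log2 fold change of 1.57 (SE 0.17, adjusted p = 1.1e-04). Bak1 (ENSRNOG00000000485, chromosome 20, 5609625 to 5618260, minus strand) had 1087, 1070 and 1052 counts with TNF-α and 1741, 1903 and 2334 with EMO, again with replicate 3 the highest. It rose 1.95-fold, from 1045 ± 20.7 to 2040 ± 302 normalized counts, with a log2 fold change of 0.97 (SE 0.10, adjusted p = 3.5e-06), just short of the DEG threshold. Without TNF-α+EMO replicate 1 or 2 the log2 fold change of Bak1 was 1.07 or 1.02, past that threshold, and without replicate 3 it was 0.86.

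The BH3-only genes were divided, with Pmaip1 and Bad higher and Bcl2l11 and Bid lower. Pmaip1 encodes NOXA, a small protein that binds mainly MCL1 and is induced by p53 and by stress of the endoplasmic reticulum. On chromosome 18 from 62174670 to 62181102 (plus strand, ENSRNOG00000018770), it had 939, 945 and 909 counts with TNF-α and 5430, 5270 and 4900 with EMO. The libraries of each group lay close together and far from the other group. Its normalized count rose 5.86-fold, from 909 ± 20.6 to 5328 ± 310, with a log2 fold change of 2.55 (SE 0.07, adjusted p = 6.3e-11), the largest rise of the 8 members and at percentile 96.5 of all tested genes.

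Bcl2l11 encodes BIM, a BH3-only protein that binds every pro-survival member and is known as a target of FOXO factors. It lies on chromosome 3 from 120726906 to 120764192 on the plus strand (ENSRNOG00000016551). It had 885, 937 and 846 counts with TNF-α and 166, 185 and 182 with EMO, so that every TNF-α+EMO library was under the lowest TNF-α library. The normalized count fell from 869 ± 44.8 to 182 ± 9.52, which was 4.77-fold higher with TNF-α alone, and the log2 fold change was -2.25 (SE 0.09, adjusted p = 1.5e-09), the largest fall of the 8 members and at percentile 14.8 of all tested genes.

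Bid and Bad differed less. BID is cut by caspase 8 and carries the signal of death receptors, TNF receptors among them, to the mitochondria. Bid (ENSRNOG00000012439, chromosome 4, 153442218 to 153465203, minus strand) had 967, 1032 and 976 counts with TNF-α and 600, 617 and 572 with EMO, with no overlap between the groups. Its normalized count fell from 969 ± 32.8 to 611 ± 25.3 and its log2 fold change was -0.66 (SE 0.08, adjusted p = 9.4e-06). Bad, whose protein is held inactive by phosphorylation and binding to 14-3-3 proteins, lies on chromosome 1 from 222198534 to 222207453 on the plus strand (ENSRNOG00000021147). It had 801, 742 and 829 counts with TNF-α and 835, 885 and 1210 with EMO, where replicate 3 stood apart from replicates 1 and 2. The normalized count was 772 ± 43.6 with TNF-α and 999.8 ± 203 with EMO. Its log2 fold change of 0.37 (SE 0.13, adjusted p = 0.021) was the smallest of the 8 in size. The call of Bad was lost when any single TNF-α library was left out (adjusted p from 0.084 to 0.16), and without TNF-α+EMO replicate 3 the log2 fold change was 0.21 (adjusted p = 0.016).

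The sequences just before the transcription start of the BH3-only genes with the largest rise and the largest fall are shown, since these genes moved apart within one class. Both stretches are from RefSeq (GRCr8, another build than that of the counts), are written 5′ to 3′ on the plus strand, and carry in capitals the matches to short motifs on either strand. Pmaip1, chr18:62255870-62255969, bases 100 to 1 before the start, with a GC box (GGGCGG), 2 copies of the short CRE motif (TGACG, here on the minus strand) and 2 overlapping matches to the NF-κB motif:
Pmaip1: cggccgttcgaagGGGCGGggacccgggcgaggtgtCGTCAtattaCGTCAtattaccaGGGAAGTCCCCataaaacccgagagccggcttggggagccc
Bcl2l11, chr3:135819822-135820021, bases 220 to 21 before the start, with a FOXO motif (GTAAACA), 2 GC boxes and a CCAAT box on the minus strand:
Bcl2l11: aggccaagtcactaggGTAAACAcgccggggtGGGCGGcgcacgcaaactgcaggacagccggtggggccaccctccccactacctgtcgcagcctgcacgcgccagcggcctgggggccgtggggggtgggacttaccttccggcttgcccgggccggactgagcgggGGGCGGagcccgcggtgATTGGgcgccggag

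Among 33469 RefSeq windows of 300 bases (250 before to 50 after a start), 21.2% held the short CRE motif, 7.51% the NF-κB motif, 3.78% the FOXO motif, 33.1% a GC box and 37.5% a CCAAT box. Of the 8 members, 7 had a window. Among these, the short CRE motif and the NF-κB motif were found in that of Pmaip1 alone, and the FOXO motif in those of Bcl2l11 and Bad, whose RNA moved in opposite directions. The composite motif of C/EBP and ATF factors (TGATGNAAN, in 3.97% of all windows) was found in the window of Bcl2 and in 3 of the 4 windows of Bcl2l1, where 2 of these windows overlap and share 1 match. No member's window held the full CRE (TGACGTCA), the E-box (CACGTG) or the p53 motif, which says only that these letters are not in these windows.

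**Figure D2:**
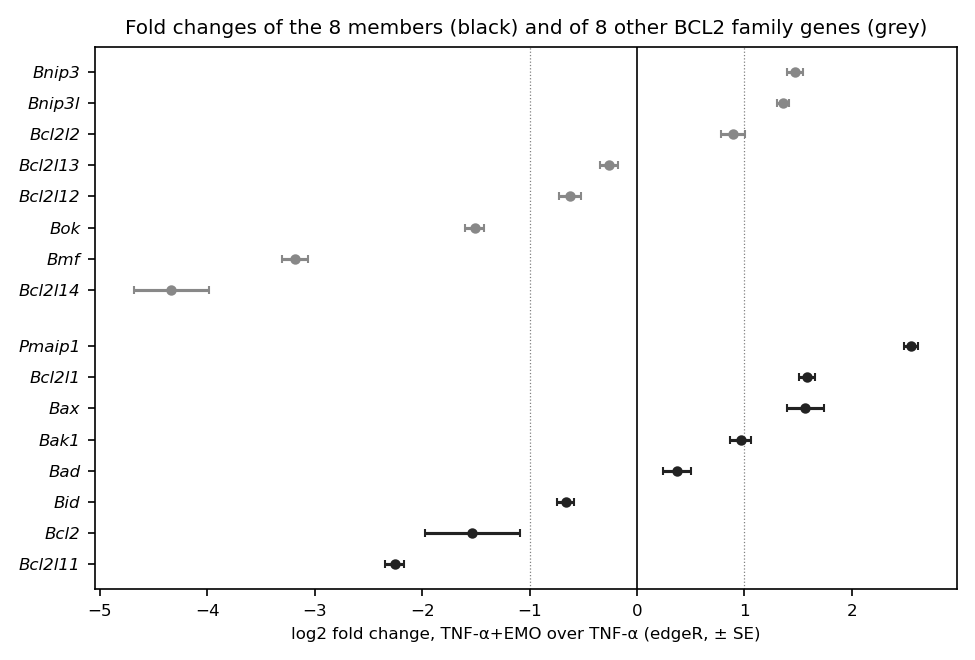
Log2 fold changes of the TNF-α+EMO over the TNF-α group by edgeR, with bars of 1 standard error, for the 8 members in black and 8 other tested BCL2 family genes in grey, with dotted lines at an absolute value of 1. Pmaip1 (2.55) and Bcl2l11 (-2.25) are the ends of the members' range, and Bcl2 has the widest bar.

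To compare levels between genes, counts were divided by the deposited gene length and the scaled library size (RPKM). With TNF-α alone Bax was the highest at 46.9 ± 2.25 RPKM, with Bad next at 44.9 ± 2.53, and these overlapped. Bak1 (30.0 ± 0.60), Bid (28.3 ± 0.96), Pmaip1 (19.2 ± 0.43), Bcl2l1 (12.7 ± 0.20), Bcl2l11 (9.83 ± 0.51) and Bcl2 (1.69 ± 0.09) followed with no overlap between neighbours. With EMO Bax again stood first at 139 ± 34.4 RPKM, and its libraries overlapped those of Pmaip1, which stood next at 112 ± 6.53. Bak1 (58.6 ± 8.67) and Bad (58.1 ± 11.8) overlapped each other. Bcl2l1 (38.1 ± 3.30), Bid (17.9 ± 0.74), Bcl2l11 (2.06 ± 0.11) and Bcl2 (0.58 ± 0.44) came after them, each below the one before in every library.

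**Figure D3:**
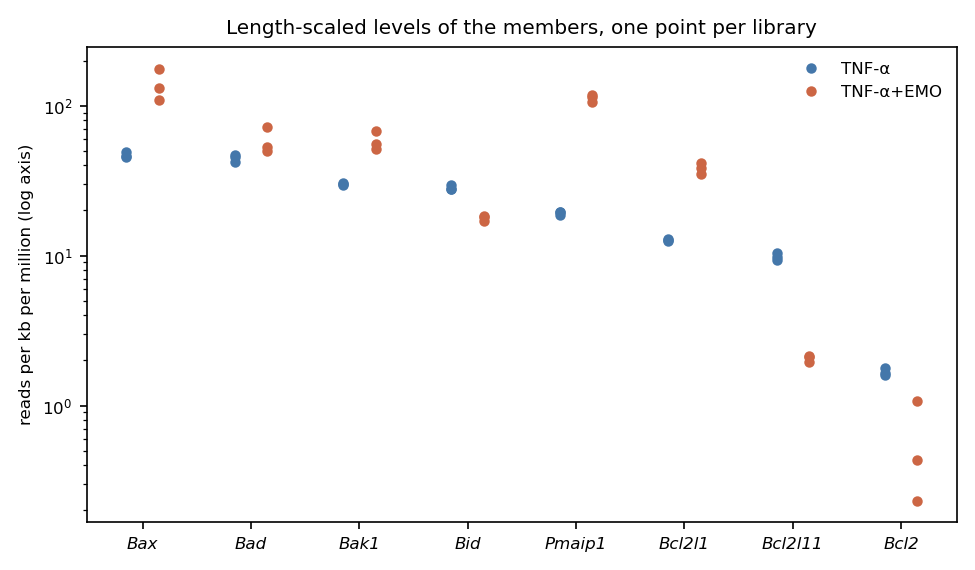
Length-scaled levels (RPKM, log axis) of the 8 members, with 1 point per library, blue for TNF-α and orange for TNF-α+EMO, in the order of the TNF-α level. Bcl2 is the lowest in both groups, and Pmaip1 and Bcl2l1 pass Bid with EMO.

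Summed by role, the levels of the members rose in all 3 classes. These sums leave out Mcl1, Bbc3 and every family gene outside the members. The effector-like Bok, one of those, went from 111 ± 3.58 RPKM with TNF-α to 39.1 ± 4.99 with EMO, opposite to the effector sum. Bmf, a further BH3-only gene, went from 13.7 ± 0.11 to 1.51 ± 0.17 RPKM, and the pro-survival Bcl2l2 from 13.7 ± 1.44 to 25.4 ± 3.70. The pro-survival genes Bcl2 and Bcl2l1 summed to 14.4 ± 0.24 RPKM with TNF-α and 38.7 ± 2.99 with EMO, of which Bcl2l1 was nearly all. The effectors Bax and Bak1 summed to 76.9 ± 1.71 and 197 ± 43.1 RPKM. The 4 BH3-only genes summed to 102 ± 0.83 and 190 ± 4.93 RPKM. The rise of these sums was 2.69-fold for Bcl2 and Bcl2l1, 2.57-fold for Bax and Bak1 and 1.86-fold for the 4 BH3-only genes. It is given as a description of the members without a test. Within the 4 summed BH3-only genes the make-up changed more than the sum. Pmaip1 made up 18.7% ± 0.53 of this sum with TNF-α and 59.1% ± 4.78 with EMO. Bad went from 43.9% ± 2.14 to 30.5% ± 5.35, Bid from 27.7% ± 1.17 to 9.39% ± 0.62 and Bcl2l11 from 9.63% ± 0.57 to 1.08% ± 0.06.

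The ratio of Bax to a pro-survival gene depended on which gene was taken. Within a library such a ratio of counts does not depend on the scaling. Bax over Bcl2 was 17.4, 17.3 and 17.1 with TNF-α and 62.9, 350 and 254 with EMO. The EMO values rest on 8 to 37 counts of Bcl2. The mean of this ratio was 17.3 ± 0.15 with TNF-α and 222 ± 146 with EMO, so 12.9-fold higher. With any 1 TNF-α+EMO library left out, the EMO mean ran from 158 to 302. Bax over Bcl2l1 was 1.12, 1.11 and 1.21 with TNF-α and 0.975, 1.06 and 1.32 with EMO. The groups overlapped in the second ratio, and its mean was 1.14 ± 0.05 with TNF-α and 1.12 ± 0.18 with EMO. The second ratio was chosen after its values were seen.

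The spread between libraries was larger with EMO in all 8 members, as in 70.4% of the tested genes. The coefficient of variation of Bax was 4.80% with TNF-α and 24.8% with EMO, and counting error alone would give 1.83% in the latter. That of Bcl2 was 5.61% and 76.3%, where counting error alone would give 22.4%. Pmaip1, Bid and Bcl2l11 stayed at 4.14% to 5.81% with EMO. TNF-α+EMO replicate 3 was the highest of its group in Bcl2l1, Bax, Bak1 and Bad and the lowest in Pmaip1 and Bid. Over all tested genes it was the highest in 37.7%. Without this library the log2 fold change of Bax was 1.38, and Bax stayed called.

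The rest of the BCL2 family also moved in both directions. Of 13 further family genes, 12 had a row and 8 were tested, with 3 higher and 5 lower at an adjusted p under 0.05, 2 and 3 of them DEGs, where 39.4% of all tested genes were higher and 41.4% lower (DEGs, 19.5% and 27.8%). Hrk was not analysed here. The pro-survival Bcl2l2 (BCL-W) rose from 826 ± 86.9 to 1535 ± 224 normalized counts (log2 fold change 0.89, adjusted p = 2.5e-05). Bnip3 and Bnip3l, whose proteins act mainly as mitophagy receptors, rose by 1.47 and 1.36 on the log2 scale (adjusted p = 9.3e-09 and 2.3e-09). The effector-like Bok had 2726, 2663 and 2842 counts with TNF-α and 881, 821 and 1054 with EMO, opposite to Bax and Bak1 (log2 fold change -1.51, adjusted p = 3.2e-08). Bmf, a BH3-only gene linked to detachment from matrix, had 498, 503 and 509 counts with TNF-α and 52, 47 and 59 with EMO (log2 fold change -3.18, adjusted p = 1.3e-09). Bcl2l14 had 62, 64 and 72 counts and then 4, 3 and 2 (log2 fold change -4.34, adjusted p = 4.9e-07), a value that rests on few counts. It passed the filter on low counts only through the TNF-α group, so its place among the lower genes was set by that filter. Bcl2l12 (log2 fold change -0.62, adjusted p = 1.9e-04) and Bcl2l13 (-0.26, adjusted p = 0.012) were lower by less, and Bcl2l12 overlaps Irf3 on the opposite strand. Bcl2a1, a pro-survival gene known as a target of NF-κB, had 2, 0 and 0 counts with TNF-α and 6, 18 and 17 with EMO and was not tested. Without the filter on low counts 4 genes of this list were higher and 5 lower, against 5605 and 6226 of 19744 genes. Bik had at most 3 counts and Bcl2l15 at most 2 in any library, and Bcl2l10 was at 0 in every library.

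Downstream of the family, the genes of cytochrome c release and caspase activation moved in both directions. Of 15 genes from Cycs and Apaf1 to the executioner caspases and the VDAC channels, 7 were higher, 3 lower and 5 did not pass, with a median log2 fold change of 0.06. The 10 called of 15 stand beside 80.9% called among all tested genes (39.4% higher, 41.4% lower). Cycs, cytochrome c itself, rose from 2064 ± 156 to 9259 ± 161 normalized counts (log2 fold change 2.17, adjusted p = 2.3e-10). Apaf1, the scaffold that cytochrome c assembles into the apoptosome, fell from 1178 ± 17.8 to 302 ± 8.35 (log2 fold change -1.97, adjusted p = 1.2e-09). Vdac2, a channel of the outer membrane that retains BAK1, rose by 1.09 on the log2 scale (adjusted p = 1.2e-08) and overlaps Comtd1 on the opposite strand.

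Of the 5 inhibitor of apoptosis genes, 1 was higher and 4 were lower, where 39.4% of all tested genes were higher and 41.4% lower, and their median log2 fold change was -1.0 against -0.01 for all genes. Xiap, which blocks caspases directly, fell from 620 ± 73.5 to 247 ± 39.7 normalized counts (log2 fold change -1.33, adjusted p = 2.7e-06). Birc5 (survivin), which also serves in chromosome segregation, had 1189, 1150 and 1245 counts with TNF-α and 48, 44 and 62 with EMO (log2 fold change -4.47, adjusted p = 8.1e-11). Birc2 (cIAP1), a ubiquitin ligase at the TNF receptor, rose from 988 ± 28.9 to 1912 ± 127 (log2 fold change 0.95, adjusted p = 2.3e-07).

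Of the genes that lead from death receptors to Bid, 8 of 9 had a row, with 2 higher, 3 lower and 3 not passing and a median log2 fold change of 0.01. The 5 called of 8 stand beside 80.9% called among all tested genes (39.4% higher, 41.4% lower). Tnfrsf10b was not analysed here. The adaptor Fadd (log2 fold change 1.19, adjusted p = 1.1e-08) and the kinase Ripk1 (0.91, adjusted p = 4.0e-07) were higher. The receptor Tnfrsf1a (-0.75, adjusted p = 6.6e-07) and Cflar (-0.75, adjusted p = 1.4e-05), which encodes the caspase 8 inhibitor c-FLIP, were lower.

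Among transcription factors known to induce BH3-only genes, 6 of 7 had a row, and 3 were higher and 3 lower, with a median log2 fold change of 0.69, where 39.4% of all tested genes were higher and 41.4% lower. E2f1 was not analysed here. Ddit3 (CHOP) and Atf4, factors of the endoplasmic reticulum and amino acid stress responses, had the largest rises of this list. Ddit3 had 453, 467 and 465 counts with TNF-α and 25228, 26635 and 29061 with EMO (log2 fold change 5.94, SE 0.08, adjusted p = 1.1e-12), and it overlaps Mars1, with up to 9616 counts, on the opposite strand. Atf4 had 4950, 4939 and 4914 counts and then 32991, 33950 and 31667 (log2 fold change 2.80, adjusted p = 1.1e-11). Foxo1 and Foxo3, which drive Bcl2l11 in many cells, were lower with log2 fold changes of -1.28 and -1.27 (adjusted p = 2.3e-05 and 2.7e-07). Whether any of these factors acted on the members was not tested.

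Genes known to set the stability of MCL1 or to hold BAD in the cytosol were also examined. Of the 5 tested genes for MCL1 turnover, 2 were higher and 3 lower, with a median log2 fold change of -0.42, beside the same background of 39.4% higher and 41.4% lower. Huwe1, a ubiquitin ligase for MCL1, fell by 1.42 on the log2 scale (adjusted p = 8.3e-09), and Usp9x, which removes ubiquitin from it, fell by 1.10 (adjusted p = 1.3e-06). Fbxw7 (log2 fold change 0.58, adjusted p = 0.0080) and Btrc (0.20, adjusted p = 0.037) were the higher genes. Fbxw7 had 85 to 148 counts and overlaps AABR07012054.1 and Dear on the opposite strand, with up to 53 counts. The call of Fbxw7 was lost without TNF-α replicate 1 (log2 fold change 0.43, adjusted p = 0.063), and the call of Btrc was lost in 7 of 15 alternatives (adjusted p from 0.059 to 0.34). Of the 7 genes for 14-3-3 proteins, 1 was higher, 3 were lower and 3 did not pass, with a median log2 fold change of -0.21, so that 4 of 7 were called beside 80.9% of all tested genes. Ywhag rose by 0.71 (adjusted p = 4.9e-07), whereas Ywhah fell by 0.63 (adjusted p = 1.8e-06) and Ywhae by 0.26 (adjusted p = 0.0058).

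**Figure D4:**
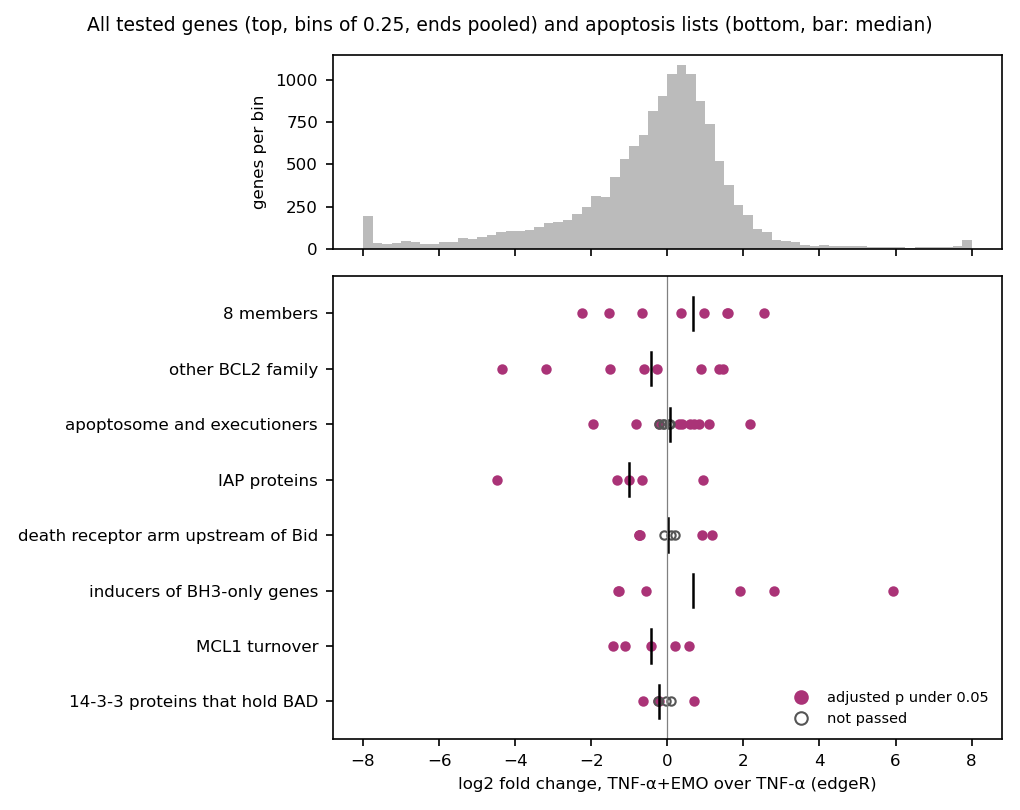
Log2 fold changes (TNF-α+EMO over TNF-α, edgeR) of all 13614 tested genes as a histogram (top, values beyond 8 pooled in the end bins) and of the 8 members and 7 further apoptosis lists as points (bottom), filled where the adjusted p was under 0.05, with a black bar at each median. The medians lie between -1.0 (inhibitor of apoptosis genes) and 0.69 (inducers of BH3-only genes), and Ddit3 at 5.94 is the farthest point from 0.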

How the data were processed

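RNA was measured in 3 TNF-α and 3 TNF-α+EMO libraries, grouped by the treatment label. The authors deposited raw counts per gene. Reads were cleaned and aligned with Hisat2, and the submitters' processing notes name FastQC, Trimmomatic, HISAT2 and the build Rnor_6.0. The counting program, the annotation version and the strand setting are not given in the sources used here. The authors also deposited FPKM values, which were not used, and their own DEseq comparison (group mean scores, log2 fold changes, p-values), which was not used either. Genes reaching 10 counts in 3 or more libraries were kept. TMM scaling and the robust quasi-likelihood test of edgeR 4.0.16 (R 4.3.3) followed, with Benjamini-Hochberg adjustment over 13614 genes. The standard error is the log2 fold change divided by the square root of F. Normalized counts are scaled to the mean effective library size. The script was tested on simulated data in which 200 genes were changed, far fewer than were called here. At an adjusted p under 0.05 it recovered 71.0% of the 93 tested genes changed by 1 on the log2 scale. Of the 97 tested genes changed by 2 it recovered 91.8%. Changed genes that failed the filter on low counts are left out of these shares. Of its calls there, 9.36% were false. At this depth at most 3 counts per library is the floor of detection, and this covers counting error only. With 3 libraries against 3 an exact permutation test cannot give a p below 0.1. The members and the 7 further lists were chosen with earlier results of these data known. Named were all members, all other tested BCL2 family genes and, of each further list, up to 2 genes with the largest rise and up to 2 with the largest fall (adjusted p under 0.05, mean of at least 50 normalized counts, groups not overlapping). Some items that these rules cover are not reported here. Alternatives were DESeq2 1.42.0, other scalings, filters and thresholds, a replicate block and leaving out each library.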

Additional observations from a re-analysis of the deposited data

How the results depend on the processing

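No member changed direction under any of the 15 alternatives run for it. The 8 member calls were kept under DESeq2, the other scalings and filters, except that Bad had a log2 fold change of 0.26 (adjusted p = 0.075) when libraries were scaled by their totals only, which lowered the median log2 fold change of all genes by 0.114. Leaving out 1 library at a time gave Bad log2 fold changes from 0.21 to 0.49, and Bad lost its call without any 1 of the TNF-α libraries. The number of higher members was then 4 to 5, and that of lower members stayed at 3. The replicate numbers showed no sign of pairing (mean correlation of same-numbered deviations 0.0252), which does not show that the samples were unpaired. With the number as a replicate block 5 members were higher and 3 lower, against 5266 and 5540 of all genes. No member's call changed under this block. Bcl2 is limited by depth, with 8 to 65 counts per library. Per length, Bax over Bcl2 was 27.8 with TNF-α, and the length factor is the same in each group. Asking for an absolute log2 fold change over 1 left 3 higher and 2 lower members, and over 2 left 1 higher and 1 lower. For all genes these limits gave 2659 and 809 higher and 3783 and 2255 lower. Over 1 and over 2, the further lists gave 2 and 0 higher with 3 and 2 lower (other BCL2 family), 2 and 1 higher with 1 and 0 lower (apoptosome and executioners), 0 and 0 higher with 3 and 1 lower (inhibitors of apoptosis), 1 and 0 higher with 0 and 0 lower (death receptor arm), 3 and 2 higher with 2 and 0 lower (inducers of BH3-only genes), 0 and 0 higher with 2 and 0 lower (MCL1 turnover), and 0 and 0 higher with 0 and 0 lower (14-3-3 proteins). Of the MCL1 turnover genes 1 was higher under DESeq2, 1 under upper-quartile scaling and 1 with library totals only, and 0 (without TNF-α replicate 1) to 2 when a library was left out, with 1 without TNF-α replicate 2 or 3 or TNF-α+EMO replicate 1. Of the 14-3-3 genes 1 to 2 were higher when a library was left out, with 2 without TNF-α+EMO replicate 3. Per length, Bax over Bcl2l1, chosen after seeing the data, was 3.69 with TNF-α and 3.61 with EMO. The cause of these shifts was not tested.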
